A study of Mus musculus with 12 samples.

Results

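The genes described here are 42 genes of myelin structure, myelin lipid and mature oligodendrocytes, measured by RNA sequencing of the medial prefrontal cortex (PFC) of mice. They were taken by symbol from the rows of a table of 41388 genes, all 42 were found, and all 42 had enough reads to be tested in each of the 3 comparisons. The rule used gene names and known functions, not values of the table, but the genes were chosen with earlier results of these data known. Counts set beside the share of all genes therefore describe this list and are not an independent test.

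Oligodendrocytes are the cells that wrap axons of the brain in myelin, a stack of membrane that insulates the axon and speeds conduction. They arise from proliferating precursors, pass through a newly formed stage, and then make large amounts of a small set of structural proteins and of galactose-bearing lipids. The transcription factors Olig2, Sox10 and Myrf act in that order, and Myrf is needed for the myelin genes to be switched on and kept on. In the prefrontal cortex myelin is laid down late, and its amount can still change in adult animals.

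All mice were male Swiss Webster mice aged 10 weeks that ate the same autoclaved diet. Conventionally raised mice (CON) had a normal microbiota, germ-free mice (GF) were raised without microbes, and exGF mice were germ-free until postnatal day 21 and were then colonized by housing beside conventional animals. The GF mice lived in isolators, and the CON mice in a standard animal unit, to which the exGF mice were moved from isolators at postnatal day 21. Microbes and housing can therefore not be told apart in these comparisons. The mice were offspring of GF or CON breeding pairs, so in the comparisons with CON breeding line cannot be told apart either. Each group had 4 libraries, and each library combined equal amounts of RNA from the hand-dissected tissue of 2 to 3 animals, which makes the replicate a pool and not a mouse. The 4 exGF columns are named GFR1 to GFR4 in the table, and exGF values are given in that order. Values are CPM, counts scaled to the normalized size of each library, and differences are log2 fold changes with their SE.

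Depth was mostly lower in GF, at 13280926 to 23465074 counts on genes, than in CON (22757169 to 29134760) and exGF (22702599 to 28615407). In 2 libraries, CON replicate 2 and GFR4, the summed level of 7 striatal marker genes was 268 and 267 CPM, against 129 to 164 CPM in the other 10 libraries, and the comparisons with exGF are given below without them as well. GF replicate 3 stood apart in the 42 genes themselves. It was the highest GF library for 38 of the 42 genes and the highest of all 12 libraries for 34 of them, whereas it was the highest GF library for 20.6% of all genes tested.

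Of the 42 genes, 9 rose in GF relative to CON in edgeR's quasi-likelihood test, at an adjusted p under 0.1 (Mbp, Mobp, Mal, Cldn11, Tspan2, Mog, Ermn, Bcas1 and Tmem88b), and none fell. Below, a gene is said to be called where it passed this test, unless another tool is named. Over all 15542 genes tested, 0.116% were called higher in GF and 0.135% lower, or 0.251% in either direction. The log2 fold change was above 0 for 41 of the 42 genes, against 51.7% of all genes, and its median was 0.49, against 0.01 for all genes. Every GF library lay above every CON library for 20 of the 42 genes, where the share among all genes was 2.08%. An unadjusted p under 0.05 on the higher side was reached by 32 of the 42, against 4.75% of all genes. DESeq2 called 20 of the 42 genes and edgeR without a filter on low counts called 18, all of them higher in GF. Both also called more genes over the whole table than edgeR with its filter did, with the totals given in the last section.

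None of the 42 genes was called in exGF relative to CON, where 0.0696% of 15813 genes were called, 0.0253% higher and 0.0443% lower. Bcas1 and Cntn2 reached an unadjusted p under 0.05 on the higher side, where 2.46% of all genes did, no other gene of the 42 did, and DESeq2 and limma-voom also called none. The median log2 fold change was 0.12, with 32 genes above 0, where 47.9% of all genes were, and 10 below. In the direct comparison of GF with exGF, 39 of the 42 genes had a log2 fold change above 0, against 51.3% of all genes, with a median of 0.43, but none was called, as none of 15569 genes was (0%). In that comparison 26 of the 42 had an unadjusted p under 0.05 on the higher side, against 3.35% of all genes. DESeq2 and limma-voom again called none of them, and edgeR without a filter on low counts called 6. The share of all genes called in that unfiltered fit is not given here, so the 6 cannot be set against it.

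**Figure D1:**
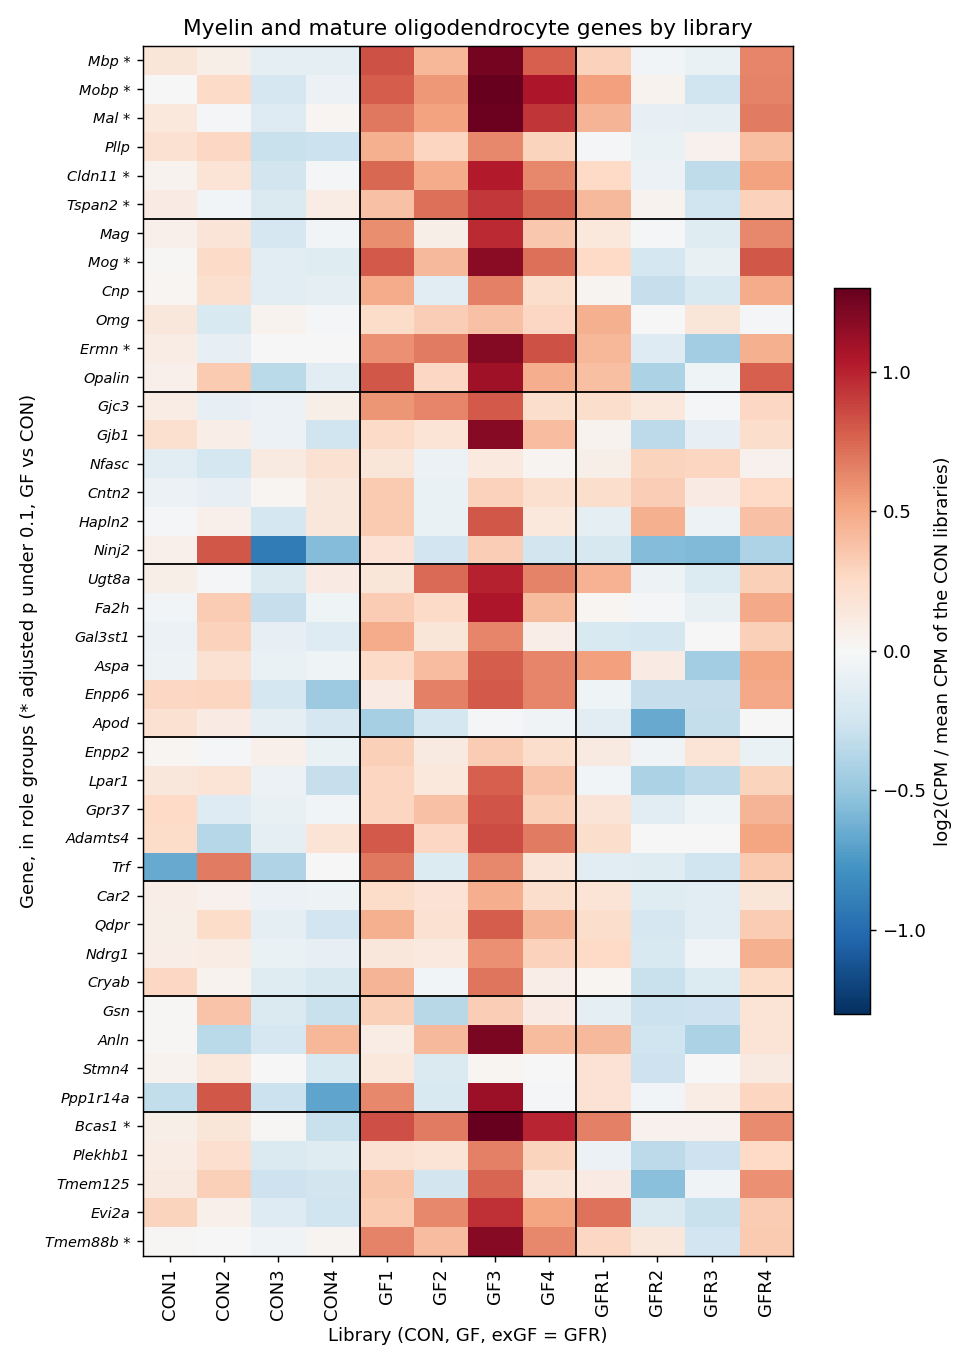
Each row is a gene and each column a library, and the colour gives log2 of the gene's CPM over its mean CPM in the CON libraries, with black lines between groups and between role groups. The GF columns are mostly red, GF replicate 3 most of all, with 38 of the 42 genes at their GF maximum there, and among the exGF columns GFR1 and GFR4 are redder than GFR2 and GFR3.

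The RNA came from whole tissue, so more oligodendrocytes and more RNA of these genes per oligodendrocyte cannot be told apart. The 42 genes together took 0.375% to 0.433% of the counts on genes in CON, 0.457% to 0.715% in GF and 0.382% to 0.536% in exGF. The GF range did not overlap the CON range, and the exGF range overlapped both. The mean of the 42 log2 values, set against the CON mean, was 0.08, 0.15, -0.14 and -0.09 in the CON libraries and 0.43, 0.24, 0.81 and 0.41 in the GF libraries. It was 0.21, -0.11, -0.12 and 0.37 in GFR1 to GFR4. Thus every GF library was above every CON library in this mean, GFR2 and GFR3 lay within the CON range, and GFR1 and GFR4 lay above it.

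The upstream sequences of 4 genes are shown because the myelin genes are known targets of Sox10 and Myrf, whose own levels are given further below. Mobp, Mog and Ermn were called in GF, and Cnp was not. The sequences are RefSeq promoter sequences on GRCm38.p6, read 5′ to 3′ on the strand of the gene, and stop before the first base of the gene in the annotation. Capitals mark matches, on either strand, to CTGGCAC or CTGGTAC, which are cores of the kind bound by Myrf, and to ACAAAG or ACAATG, which are cores of the kind bound by Sox proteins.
Mobp (chr9:120149492-120149706, plus strand): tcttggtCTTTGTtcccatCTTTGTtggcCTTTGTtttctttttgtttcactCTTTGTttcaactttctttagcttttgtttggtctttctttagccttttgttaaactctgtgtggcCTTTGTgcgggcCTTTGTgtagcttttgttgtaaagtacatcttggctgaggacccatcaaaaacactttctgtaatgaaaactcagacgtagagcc
Mog (chr17:37023399-37023648, minus strand): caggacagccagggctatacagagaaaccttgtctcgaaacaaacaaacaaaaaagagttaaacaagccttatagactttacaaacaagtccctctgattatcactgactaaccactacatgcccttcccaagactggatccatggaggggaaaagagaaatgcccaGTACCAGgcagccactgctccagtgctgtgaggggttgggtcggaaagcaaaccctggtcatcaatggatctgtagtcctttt
Ermn (chr2:58052865-58053114, minus strand): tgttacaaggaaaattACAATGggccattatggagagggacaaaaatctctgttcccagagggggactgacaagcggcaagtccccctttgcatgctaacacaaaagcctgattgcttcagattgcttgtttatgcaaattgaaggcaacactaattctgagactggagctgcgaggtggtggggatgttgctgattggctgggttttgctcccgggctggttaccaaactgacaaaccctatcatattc
Cnp (chr11:100574689-100574903, plus strand): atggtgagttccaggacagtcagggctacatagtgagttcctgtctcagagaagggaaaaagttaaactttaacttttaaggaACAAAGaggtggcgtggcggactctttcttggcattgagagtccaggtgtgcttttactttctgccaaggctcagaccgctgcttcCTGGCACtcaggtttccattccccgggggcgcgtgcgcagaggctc

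The Mobp sequence holds 6 matches, all of ACAAAG read on the opposite strand. Mog and Ermn hold 1 match each, of CTGGTAC and of ACAATG, and Cnp holds 2, of CTGGCAC and ACAAAG. RefSeq promoters were found for 30 of the 42 genes, with 44 windows of 250 bases because some genes have several starts, and windows of 1 gene can overlap. A match to CTGGCAC or CTGGTAC was found in 13.6% of the 44 windows, from 5 genes, and in 5.93% of all 32851 windows. Mag enters that 13.6% with 2 overlapping windows, which may hold the same site. A match to ACAAAG or ACAATG was found in 40.9% of the 44, from 14 genes, and in 25.2% of all. Mag and Gal3st1 each enter that 40.9% with 2 overlapping windows, which may hold the same site. Every sequence shown above holds a match, but not every called gene has one. The windows of Mal and Cldn11, both called in GF, hold no match of either kind. The median GC content was 56.8% in the 44 windows and 52.4% in all windows. These matches describe letters in the sequence and were not measured as binding.

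The genes for proteins of the compact myelin membrane had the highest median change of the 8 role groups. In GF relative to CON 5 of these 6 genes rose (Mbp, Mobp, Mal, Cldn11 and Tspan2), and all 6 had every GF library above every CON library, for Pllp by less than the last digit printed. The median log2 fold change of the group was 0.80 in GF and 0.18 in exGF relative to CON.

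Mbp encodes myelin basic protein, which holds the inner faces of the myelin membrane together, and lies at chr18:82475146-82585637 on GRCm38. It was measured at 1204, 1135, 990.0 and 985 CPM in the CON libraries, 1918, 1453, 2555 and 1842 in the GF libraries and 1327, 1052, 1018 and 1673 in the exGF libraries. Its lowest GF library was above its highest CON library, and only GFR1 and GFR4 exceeded the CON range. Mbp rose by 0.86 ± 0.14 on the log2 scale, or 1.82-fold, in GF relative to CON (edgeR, adjusted p = 0.0181), and the difference of exGF from CON was 0.22 ± 0.14 (adjusted p = 0.952). Per length it was the most abundant of the 42 genes in GF, with a mean of 229 RPKM, a unit that divides the CPM by the exon length, and in CON it came after Stmn4 with 127 RPKM.

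Mobp (chr9:120149707-120181484) encodes another small basic protein of the membrane's inner face. Its values were 322, 380.4, 276 and 304 CPM in the CON libraries, 555, 473, 839 and 663 in the GF libraries and 463, 330.0, 268 and 503 in the exGF libraries. GF and CON did not overlap, and GFR3 was below every CON library whereas GFR1 and GFR4 were above them all. The change in GF was 0.99 ± 0.15, or 1.99-fold (edgeR, adjusted p = 0.0168), against 0.27 ± 0.17 in exGF (adjusted p = 0.952).

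Mal (chr2:127633226-127656695) encodes a proteolipid that sorts proteins and lipids to the myelin membrane. It stood at 131, 117, 106 and 121 CPM in the CON libraries, 191, 170.0, 286 and 225 in the GF libraries and 161, 110.3, 109 and 189 in the exGF libraries. All 4 GF libraries were above all CON libraries, and 2 of the exGF libraries were above the CON range too. Mal rose by 0.89 ± 0.14 in GF (edgeR, adjusted p = 0.0168) and differed by 0.25 ± 0.16 in exGF (adjusted p = 0.952).

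Cldn11 (chr3:31149920-31164324), the claudin of myelin tight junctions, was at 42.6, 46.4, 34.8 and 40.7 CPM in the CON libraries, 69.02, 57.5, 84.2 and 63.5 in the GF libraries and 49.2, 39.2, 32.7 and 59.3 in the exGF libraries. The GF values again lay above every CON value, and the exGF values ran from below the CON range to within the GF range. The change was 0.75 ± 0.12 in GF (edgeR, adjusted p = 0.0214) and 0.12 ± 0.16 in exGF (adjusted p = 0.977). In a single fit of all 12 libraries its adjusted p in GF was 0.102.

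Tspan2 (chr3:102734529-102801513), a tetraspanin of oligodendrocytes, was at 54.4, 49.6, 44.4 and 54.2 CPM in the CON libraries, 66.1, 83.4, 95.9 and 85.8 in the GF libraries and 67.96, 52.4, 42.4 and 62.2 in the exGF libraries. No GF library overlapped CON, and it was the gene of these 6 for which GF replicate 1 was the lowest GF library. The change was 0.72 ± 0.11 in GF (edgeR, adjusted p = 0.0168) and 0.14 ± 0.13 in exGF (adjusted p = 0.968).

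Pllp, which encodes the membrane protein plasmolipin, was the member of the group that was not called. It was measured at 32.8, 34.6, 23.5 and 23.6 CPM in the CON libraries, 39.5, 34.6, 44.1 and 34.99 in the GF libraries and 28.3, 26.9, 29.6 and 37.5 in the exGF libraries. CON replicate 2 and GF replicate 2 were almost equal. The difference in GF was 0.43 ± 0.14 (edgeR, adjusted p = 0.346).

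**Figure D2:**
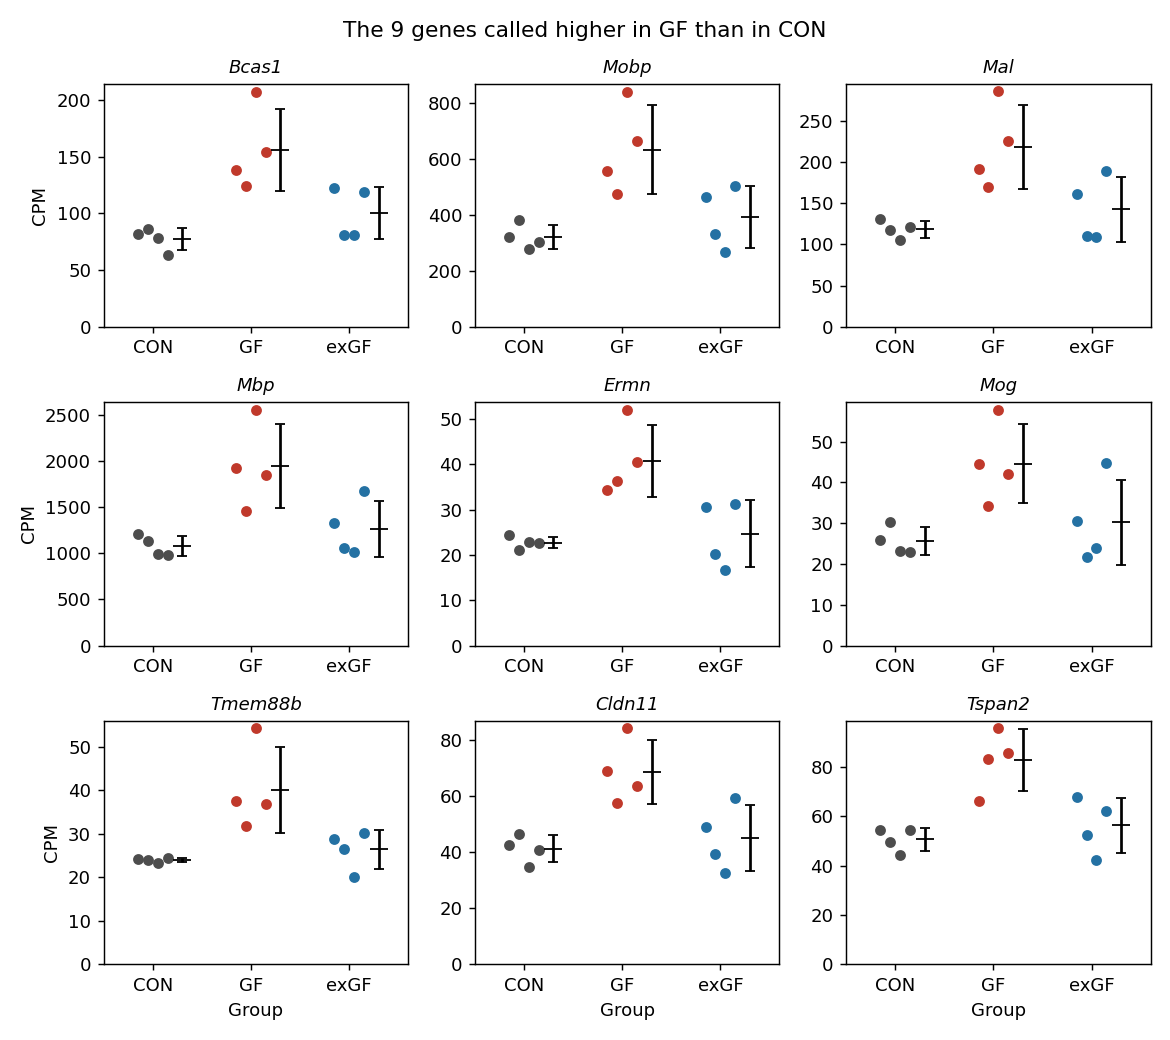
The CPM of the 9 genes called in GF relative to CON is plotted from 0 for each library (points, in the order of replicate or GFR number) with the mean and SD of each group (bar). In all 9 panels the 4 GF points lie above the 4 CON points, and no exGF point reaches the GF points for Ermn, Bcas1 and Tmem88b.

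Among genes for proteins of the myelin surface and its inner layers, 2 of 6 rose in GF (Mog and Ermn). The median log2 fold change was 0.63 in GF and 0.16 in exGF relative to CON. The other 4 genes had an unadjusted p under 0.05 on the higher side without being called by edgeR, and DESeq2 called Mag, Opalin and Omg of these.

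Mog (chr17:37010743-37023398) encodes a glycoprotein on the outermost face of the sheath. Its values were 25.9, 30.3, 23.2 and 22.9 CPM in the CON libraries, 44.5, 34.3, 57.8 and 42.02 in the GF libraries and 30.5, 21.8, 23.9 and 44.8 in the exGF libraries. The GF libraries were above all CON libraries, and GFR4 reached the GF range. Mog rose by 0.82 ± 0.14 in GF (edgeR, adjusted p = 0.0342) and differed by 0.23 ± 0.19 in exGF (adjusted p = 0.968). The adjusted p in GF was 0.147 without CON replicate 3 and 0.152 in a single fit of all 12 libraries.

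Ermn (chr2:58045113-58052864) encodes ermin, a late-appearing protein that binds the actin skeleton of the sheath. It was at 24.4, 21.2, 22.8 and 22.7 CPM in the CON libraries, 34.3, 36.4, 51.9 and 40.5 in the GF libraries and 30.7, 20.3, 16.6 and 31.3 in the exGF libraries. Every GF library was above every CON and every exGF library, and GFR3 was the lowest of the 12. The change was 0.85 ± 0.12 in GF relative to CON (edgeR, adjusted p = 0.012), 0.11 ± 0.18 in exGF relative to CON (adjusted p = 0.989) and 0.74 ± 0.19 in GF relative to exGF (adjusted p = 0.736), the highest of the 42 genes in that last comparison. In the annotation 6.52% of its exon bases overlap Galnt5 on the other strand. The counting did not use strand, so reads wholly within those bases could be set aside as ambiguous.

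Mag encodes the adhesion protein that faces the axon across the innermost layer. It was measured at 79.00, 85.3, 64.9 and 73.6 CPM in the CON libraries, 115, 79.8, 148 and 96.8 in the GF libraries and 82.97, 74.2, 67.9 and 117 in the exGF libraries. GF replicate 2 lay within the CON range and the other GF libraries above it. The difference was 0.55 ± 0.15 in GF (edgeR, adjusted p = 0.254) and 0.16 ± 0.15 in exGF (adjusted p = 0.968).

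Omg, a membrane-anchored glycoprotein that inhibits neurite growth and is made by neurons as well as oligodendrocytes, was at 198, 156, 185 and 177 CPM in the CON libraries, 212, 223, 233 and 216 in the GF libraries and 248, 179, 200.4 and 177 in the exGF libraries. The GF libraries were all above CON, by a small margin and with little spread, and the highest of the 12 libraries was GFR1. The difference in GF was 0.32 ± 0.08 (edgeR, adjusted p = 0.218) and in exGF 0.16 ± 0.11 (adjusted p = 0.968). Opalin, a sialylated membrane glycoprotein, differed by 0.71 ± 0.19 in GF (adjusted p = 0.218). Cnp, the cyclic nucleotide phosphodiesterase of uncompacted myelin, differed by 0.35 ± 0.14 (adjusted p = 0.491).

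None of the 6 genes of junctions and axon contact was called by edgeR, DESeq2 called 1 (Gjc3), 2 had an unadjusted p under 0.05 (Gjc3 and Gjb1), and the median log2 fold change in GF was 0.28. Gjc3, a connexin of myelinating glia, had the largest difference and was at 16.5, 14.3, 14.6 and 16.2 CPM in the CON libraries, 22.8, 23.9, 26.7 and 17.99 in the GF libraries and 18.01, 16.9, 15.1 and 18.6 in the exGF libraries. GF and CON did not overlap. The difference was 0.58 ± 0.12 (edgeR, adjusted p = 0.112), just above the threshold.

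Ninj2, an adhesion protein, was at the low end with 0.942, 1.58, 0.481 and 0.609 CPM in the CON libraries, 1.03, 0.757, 1.12 and 0.763 in the GF libraries and 0.780, 0.611, 0.607 and 0.685 in the exGF libraries. Its groups overlapped throughout, and at about 1 CPM it was the least precise of the 42, with a difference of 0.04 ± 0.39 in GF and -0.42 ± 0.38 in exGF. Gjb1, the other connexin, differed by 0.58 ± 0.21 in GF, with 1 GF library far above the rest. Hapln2, a matrix link protein of the node of Ranvier, differed by 0.35 ± 0.19.

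Nfasc and Cntn2 encode adhesion proteins of the node region that neurons make too, and their pattern was not that of the myelin membrane genes. Nfasc differed by 0.07 ± 0.10 in GF and 0.17 ± 0.10 in exGF, and Cntn2 by 0.21 ± 0.10 in GF and 0.22 ± 0.09 in exGF (edgeR, unadjusted p = 0.0274, adjusted p = 0.84). The mean of neither was lower in exGF than in GF, with differences of GF from exGF of -0.10 ± 0.09 and -0.01 ± 0.10.

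Of the 6 genes of myelin lipid and acetate metabolism edgeR called none, 5 had an unadjusted p under 0.05 on the higher side in GF, and the group median was 0.56. DESeq2 called 2 of them (Ugt8a and Aspa), and edgeR without a filter on low counts called 2 (Ugt8a and Fa2h). Ugt8a makes galactosylceramide, the main glycolipid of myelin, and was at 26.3, 24.5, 21.8 and 26.9 CPM in the CON libraries, 27.8, 41.3, 49.6 and 38.8 in the GF libraries and 34.1, 23.7, 21.97 and 30.7 in the exGF libraries. GF replicate 1 was just above the CON range and the other GF libraries were well above it. The difference was 0.68 ± 0.14 (edgeR, adjusted p = 0.115).

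Fa2h, which hydroxylates the fatty acids of these lipids, differed by 0.57 ± 0.18, and Gal3st1, which adds sulfate to galactosylceramide, by 0.37 ± 0.16. Aspa, which releases acetate from N-acetylaspartate for lipid synthesis, differed by 0.55 ± 0.15. Enpp6, a choline-specific phosphodiesterase that also marks oligodendrocytes at an early stage of differentiation, differed by 0.60 ± 0.22. The adjusted p of Fa2h, Gal3st1, Aspa and Enpp6 in edgeR ran from 0.234 for Aspa to 0.523 for Gal3st1.

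Apod, a lipid-binding lipocalin also made outside oligodendrocytes, was the only gene of the 42 with a log2 fold change below 0 in GF relative to CON. It was measured at 149, 140.1, 119 and 112 CPM in the CON libraries, 96.6, 111, 128 and 127 in the GF libraries and 119, 82.5, 105 and 131 in the exGF libraries. The 3 groups overlapped. The difference was -0.16 ± 0.11 in GF (edgeR, adjusted p = 0.732) and -0.26 ± 0.14 in exGF (adjusted p = 0.951).

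Of the 5 genes for secreted proteins and receptors edgeR called none, and DESeq2 called 2 (Adamts4 and Gpr37). In edgeR 4 had an unadjusted p under 0.05 on the higher side, and the median in GF was 0.42. Adamts4, a protease of the extracellular matrix, was at 13.02, 8.58, 10.2 and 12.5 CPM in the CON libraries, 19.2, 13.4, 19.95 and 17.6 in the GF libraries and 12.9, 11.1, 11.1 and 15.8 in the exGF libraries. Every GF library was above every CON library, the lowest by a small margin. The difference was 0.67 ± 0.16 (edgeR, adjusted p = 0.154).

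Enpp2 encodes autotaxin, which makes the signalling lipid lysophosphatidic acid, and was at 266, 258, 274 and 246 CPM in the CON libraries, 323, 282, 329 and 305 in the GF libraries and 284, 252, 296 and 246 in the exGF libraries. GF did not overlap CON, and the difference was the smallest of these 5 at 0.26 ± 0.08 (edgeR, adjusted p = 0.287). Lpar1, a receptor for that lipid, differed by 0.42 ± 0.14 in GF and -0.11 ± 0.16 in exGF, and Gpr37, a receptor of maturing oligodendrocytes, by 0.48 ± 0.13 and 0.11 ± 0.14. Trf, the iron carrier transferrin, differed by 0.37 ± 0.26 in GF with CON libraries at 7.13, 17.9, 8.51 and 11.2 CPM. Its counts are uncertain, since 63.5% of its exon bases overlap the gene model Gm20425.

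All 4 genes for soluble enzymes and stress proteins had an unadjusted p under 0.05 on the higher side in GF (edgeR). EdgeR called none, DESeq2 called 2 (Qdpr and Car2), and the median was 0.33. Qdpr, which regenerates the cofactor of aromatic amino acid hydroxylases, was at 79.6, 89.01, 69.6 and 63.6 CPM in the CON libraries, 104, 86.5, 129.8 and 103 in the GF libraries and 88.5, 64.7, 68.1 and 94.6 in the exGF libraries. GF replicate 2 lay within the CON range. The difference was 0.50 ± 0.13 (edgeR, adjusted p = 0.204).

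Car2, a carbonic anhydrase, was at 166, 162, 148 and 149 CPM in the CON libraries, 185, 178, 217 and 182 in the GF libraries and 176, 139, 141 and 174 in the exGF libraries. Every GF library was above every CON and every exGF library, with a narrow spread. The difference of GF from CON was 0.30 ± 0.09 (edgeR, adjusted p = 0.269), that of exGF from CON 0.00 ± 0.10 and that of GF from exGF 0.29 ± 0.10. Ndrg1, a stress-responsive protein linked to myelin maintenance, differed by 0.32 ± 0.11 in GF and Cryab, a small heat shock protein that shares 17% of its exon bases with Hspb2, by 0.34 ± 0.15.

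Among the 4 cytoskeleton genes none was called in GF by edgeR or DESeq2, 1 had an unadjusted p under 0.05, and the median was 0.31. Anln, which encodes anillin, was at 8.40, 6.49, 7.11 and 11.2 CPM in the CON libraries, 8.84, 11.1, 19.4 and 11.1 in the GF libraries and 11.1, 6.94, 6.22 and 9.38 in the exGF libraries. GF replicate 3 was far above the other libraries, and the rest of GF lay within the CON range. The difference was 0.62 ± 0.23 (edgeR, adjusted p = 0.425).

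Stmn4, a stathmin that neurons make as well, was at 281, 299, 272 and 238 CPM in the CON libraries, 299, 239, 276 and 273 in the GF libraries and 310.3, 227, 272 and 295 in the exGF libraries. The groups coincided, with differences of 0.01 ± 0.09 in GF and 0.01 ± 0.11 in exGF. Gsn, the actin-severing protein gelsolin, differed by 0.13 ± 0.16 in GF, and Ppp1r14a, an inhibitor of myosin phosphatase, by 0.48 ± 0.34 with overlapping groups.

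Of the genes for 5 other proteins enriched in oligodendrocytes, 2 rose in GF in edgeR. DESeq2 called Evi2a besides, and the group median was 0.64. Bcas1 (chr2:170346991-170427845) marks oligodendrocytes that are making myelin, and was at 81.6, 86.6, 78.2 and 63.5 CPM in the CON libraries, 138, 124, 207 and 154 in the GF libraries and 122, 80.6, 80.7 and 118 in the exGF libraries. Every GF library was above every CON and every exGF library, and GFR1 and GFR4 were above the CON range. Its change in GF, 1.02 ± 0.14 or 2.03-fold, was the largest of the 42 (edgeR, adjusted p = 0.012). In exGF the difference was 0.36 ± 0.15 (unadjusted p = 0.032, adjusted p = 0.877), again the largest of the 42. In the annotation 12.6% of its exon bases overlap antisense genes. The counting did not use strand, so reads wholly within shared bases could be set aside as ambiguous and go uncounted.

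Tmem88b (chr4:155781591-155785874), a membrane protein, was at 24.2, 23.9, 23.3 and 24.5 CPM in the CON libraries, 37.6, 31.8, 54.3 and 36.8 in the GF libraries and 28.8, 26.6, 20.1 and 30.3 in the exGF libraries. The CON libraries were nearly equal and every GF library was above every CON and every exGF library. The change was 0.75 ± 0.14 in GF (edgeR, adjusted p = 0.0424) and 0.13 ± 0.12 in exGF (adjusted p = 0.968). The adjusted p in GF was 0.108 without CON replicate 1 and 0.154 without CON replicate 3.

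Tmem125, another membrane protein, had the smallest difference of the group, at 4.22, 4.82, 3.23 and 3.31 CPM in the CON libraries, 5.01, 3.30, 6.58 and 4.36 in the GF libraries and 4.19, 2.66, 3.79 and 5.89 in the exGF libraries. Its groups overlapped, with a difference of 0.31 ± 0.22 in GF. Evi2a differed by 0.64 ± 0.15 (edgeR, adjusted p = 0.155) and shares 19.2% of its exon bases with Evi2. Plekhb1 differed by 0.35 ± 0.12 in GF and -0.10 ± 0.14 in exGF.

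The comparison of exGF with CON asked whether these genes were at the CON level after colonization from weaning, which came with the move out of isolators. For the 9 genes called in GF, the differences of exGF from CON ran from 0.11 for Ermn to 0.36 for Bcas1, none was called, and the adjusted p of the 42 genes ran from 0.84 to 0.999. The 95% intervals were wide enough to hold sizeable changes, with upper limits of 0.39 to 0.69 for the 9 genes. For Mbp the interval was -0.08 to 0.53 and for Bcas1 0.04 to 0.69. Without GFR4 the 9 differences ran from -0.02 to 0.30 with upper limits of 0.29 to 0.63, the interval for Bcas1 was -0.04 to 0.63, and 20 of the 42 genes were above 0. Without both GFR4 and CON replicate 2, a choice made after seeing the data, they ran from -0.04 to 0.35 with upper limits of 0.37 to 0.72, and 26 of the 42 were above 0. None of the 42 was called in either fit, where 13 of 15957 and 17 of 15858 of all genes were called. The shares of all genes above 0 in these fits are not given here.

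For GF relative to exGF the 9 differences ran from 0.57 for Mog to 0.74 for Ermn, and the adjusted p in edgeR of the 42 genes ran from 0.736 to 0.994. The 95% interval for Ermn was 0.32 to 1.15 before any adjustment. Without GFR4 the 9 differences ran from 0.62 to 0.87, and the median of the 42 genes was 0.52. None of the 42 was called in that fit, where 6 of 15728 of all genes were. Every GF library exceeded every exGF library for 4 of the 42 genes, Ermn, Car2, Bcas1 and Tmem88b, where 1.34% of all genes did so. For none of the 42 was every exGF library above every CON library, against 1.88% of all genes. The exGF samples are compared with the same CON and GF libraries that enter the comparison of GF with CON.

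**Figure D3:**
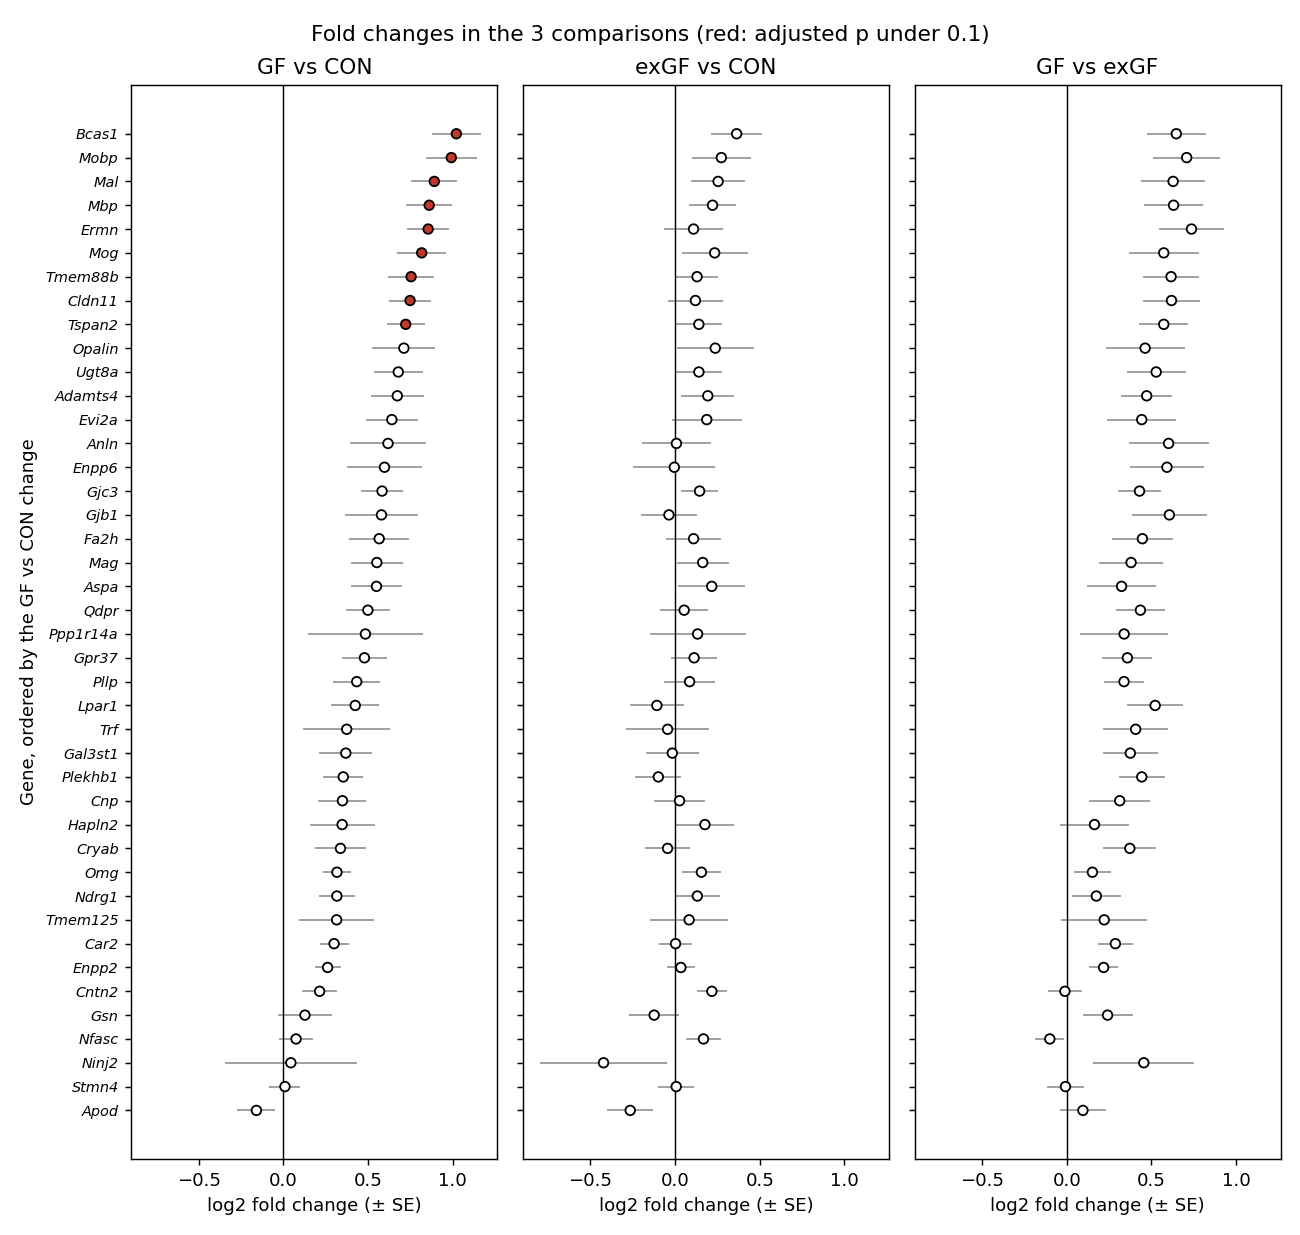
The log2 fold change of each of the 42 genes is drawn with its SE for GF vs CON, exGF vs CON and GF vs exGF, with genes in the order of the first panel and red points for an adjusted p under 0.1. The 9 red points all lie in the first panel between 0.72 and 1.02, and the points of exGF vs CON scatter around a median of 0.12.

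Libraries of 1 group differed in these genes together. The median coefficient of variation of the 42 genes was 13.6% in CON, 19.7% in GF and 19.9% in exGF, against 12.2%, 11.99% and 12.6% for all genes. GF replicate 3 was above the GF mean for all 42 genes, and GF replicate 2 was the lowest GF library for 30. In exGF, GFR4 was the highest library for 28 genes and GFR1 for 10, and GFR2 and GFR3 were the lowest for 20 and 18. Without GF replicate 3, 9 of the 42 were called in GF relative to CON and the median was 0.34. Without GFR4, 1 of the libraries with raised striatal markers, the median of exGF relative to CON went from 0.12 to -0.00, and without both GFR4 and CON replicate 2 it was 0.07. In GF relative to CON, leaving out CON replicate 2 gave 9 calls and a median of 0.56.

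Other genes of the lineage were counted from lists chosen by function. Of 26 other genes of mature oligodendrocytes, 25 could be tested in GF relative to CON, 24 of these had a log2 fold change above 0, 10 had an unadjusted p under 0.05 and none was called, with a median of 0.21. Among them Prr5l, a regulator of mTOR signalling, differed by 0.59 ± 0.19 and Plekhh1 by 0.56 ± 0.14. Genes of earlier stages lay around 0. Of 6 genes of newly formed oligodendrocytes 2 were higher and 4 lower, from -0.20 to 0.20, with a median of -0.04. Gpr17, a receptor of that stage, differed by -0.16 ± 0.09 and Tcf7l2 by 0.20 ± 0.25. Of 6 precursor genes 1 was higher and 5 lower with a median of -0.02, and Pdgfra, the growth factor receptor of precursors, differed by -0.02 ± 0.10. No gene of either list had an unadjusted p under 0.05.

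The 9 transcription and RNA regulators of the lineage were all above 0 in GF relative to CON, with a median of 0.26. None was called, and Myrf and Nkx6-2 had an unadjusted p under 0.05. Myrf averaged 20.7 CPM in CON, 29.97 CPM in GF and 25.2 CPM in exGF libraries, a difference of 0.55 ± 0.14 in GF (edgeR, adjusted p = 0.177) and 0.28 ± 0.11 in exGF (adjusted p = 0.832). Nkx6-2, a homeobox factor of mature oligodendrocytes, averaged 2.68 CPM in CON libraries, 5.01 CPM in GF and 2.42 CPM in exGF, a difference of 0.92 ± 0.29 in GF (edgeR, adjusted p = 0.341) and -0.15 ± 0.26 in exGF. Sox10 differed by 0.26 ± 0.13 in GF and 0.06 ± 0.14 in exGF. Olig1 and Olig2, which are on from the precursor stage, each differed by 0.05 in GF. In exGF 4 of the 9 were above CON and 5 below, with a median of -0.12.

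Of 9 genes of general sphingolipid and galactolipid synthesis and turnover, 7 were above 0 in GF and 2 below, with a median of 0.14 and no call. Degs1, a desaturase of ceramide synthesis, was the gene among them with an unadjusted p under 0.05 in GF, with a difference of 0.18 ± 0.08.

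**Figure D4:**
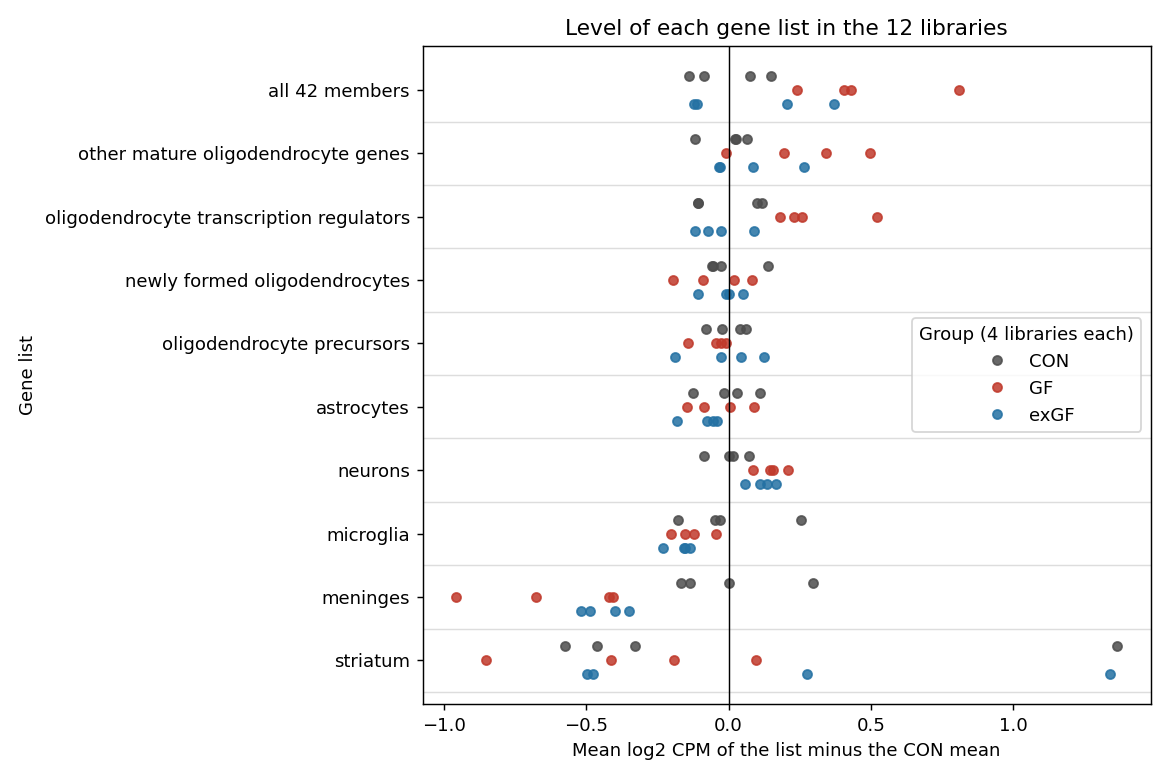
For each gene list, the mean log2 CPM of its genes in each of the 12 libraries is plotted relative to the CON mean, with 4 points per group. The 4 GF points of the 42 genes lie between 0.24 and 0.81, whereas newly formed and precursor genes lie around 0, the meningeal genes lie below 0 in GF and exGF, and the striatal genes stand apart in 1 CON and 1 exGF library.

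Markers of other cell types were measured in the same libraries. All 6 meningeal genes were lower in GF than in CON, and Col1a2 (-0.69 ± 0.11) and Slc6a13 (-0.94 ± 0.13) were called. Summed over the 6 genes, the level ran from 84.4 to 113 CPM in CON, from 51.5 to 73.8 in GF and from 64.7 to 78.3 in exGF, with GF and exGF both below the CON range. The 7 neuronal genes were above 0 in GF with a median of 0.14 and no call, and their sum was 10239 to 11700 CPM in CON and 11875 to 12627 in GF. The medians were 0.02 for 7 astrocyte genes, -0.13 for 7 microglial genes and -0.04 for 6 endothelial genes, with no call. The 4 genes of layer 6b, the deepest cortical layer, varied between libraries of 1 group. Their mean log2 level relative to CON was -0.55, -0.28, 0.34 and 0.25 in the GF libraries and -0.11, -0.71, -0.77 and 0.33 in GFR1 to GFR4, against -0.12 to 0.11 in CON. It was highest in GF replicate 3 and in GFR4, the libraries with the highest mean of the 42 genes in their groups. None of the 4 was called in GF or exGF. The 5 upper-layer genes had a median of 0.06 in GF and 0.08 in exGF with no call, and the 6 choroid plexus genes summed to 5.87 to 6.76 CPM in CON, 3.26 to 14.1 in GF and 2.67 to 6.82 in exGF. Of 6 striatal genes that could be tested 5 were below 0 with a median of -0.33, and none was called. The part of the meningeal, neuronal, layer 6b and striatal markers in the result was not tested.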

How the data were processed

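RNA of the PFC was sequenced as polyA-selected, stranded libraries in 4 pools per group. Per the labels and methods, the authors trimmed reads with Trimmomatic 0.32, aligned them with STAR to GRCm38 and counted pairs on genes of Ensembl 78 with HTSeq-count 0.6.0, without strand. The deposited values are raw counts with no normalization. Rows that name no gene were left out.

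The members and lists were chosen with earlier results of these data known. Each pair of groups was filtered by filterByExpr, normalized by TMM and tested with edgeR 4.0.16 (quasi-likelihood, R 4.3.3, Benjamini-Hochberg over all genes, called at an adjusted p under 0.1). All 42 members were described, with values per library for called genes, for the members with the largest and smallest change of each role group in GF, and for Mag and Omg. RPKM used exon lengths of GENCODE (Ensembl 96), and list values used log2 CPM with a prior count of 1. Alternatives were other normalizations, filters and thresholds, limma-voom (limma 3.58.1), DESeq2 1.42.0, a replicate block, and leaving out each library. Each mean chi-square per gene between libraries of a group was 9.26 to 40.2, where sampling alone gives about 1, so no 2 libraries were merged, and the spread between pools exceeded counting error. P-values set the group differences against that spread, which is between pools and not between single mice. Same-numbered CON and GF libraries did not deviate together (correlations -0.05 to 0.03).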

Additional observations from a re-analysis of the deposited data

Results flagged for a closer look

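In each group of 4 libraries, a library was picked out where its distance to the nearest other library was a larger share of the group's range than Dixon's 95% critical value allows. Chance picks out about 1 in 20 groups. Of 126 groups tested (42 genes in 3 groups) this gave 7. In CON, replicate 2 was at 10.46 CPM for Gal3st1 (others 7.61 to 8.07) and at 6.96 CPM for Aspa (others 5.70 to 5.82). In GF, replicate 3 was at 11.8 CPM for Gjb1 (others 5.88 to 6.87), at 31.6 CPM for Fa2h (others 18.1 to 20.3) and at 44.4 CPM for Gpr37 (others 30.6 to 32.9). In exGF, GFR4 was at 21.4 CPM for Fa2h (others 14.3 to 15.4) and at 14.1 CPM for Trf (others 9.36 to 10.2). All 7 were high values. None of these genes was called by edgeR with its filter, while DESeq2 called Aspa and Gpr37 and edgeR without a filter called Fa2h and Gpr37 in GF relative to CON. CON replicate 2 and GFR4 are the libraries with raised striatal markers, and their part in these values was not tested.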

How the results depend on the processing

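The 9 calls in GF relative to CON numbered 8 to 10 under RLE or upper-quartile normalization, a minimum of 10 counts, a robust fit, limma-voom, a single fit of all 12 libraries and an adjusted p under 0.05. They became 18 with no filter on low counts (221 genes called in all, against 39) and 20 with DESeq2 (195 in all), where the cause was not tested. Leaving out 1 library gave 7 to 12 (fewest without CON replicate 3, most without GF replicate 2). Exclusion of CON replicate 2 for its striatal markers was chosen after seeing the data and gave 9. The replicate block gave 10, with numbers that do not pair the samples. For GF relative to CON, totals over all genes are given only for the main fit, the fit with no filter and DESeq2. Mbp, Mobp, Mal, Tspan2, Ermn and Bcas1 were called under all 17 alternatives. Cldn11 missed the threshold in the single fit (adjusted p = 0.102), Mog there (0.152) and without CON replicate 3 (0.147), and Tmem88b without CON replicate 1 (0.108) or 3 (0.154), all from edgeR. In exGF relative to CON there were 0 calls throughout. In GF relative to exGF there were 6 with no filter and 0 otherwise, 0 to 0 on leaving out a library. The share of all genes called in the fit that gave 6 is not given here. Direction changed for Stmn4 (-0.00118 upper-quartile, -0.00815 no filter, -0.00388 minimum of 10 counts, -0.052 to 0.067 on leaving out a library, below 0 without CON replicate 4 or GF replicate 1) and for Ninj2 (-0.18 to 0.45 on leaving out a library, below 0 without CON replicate 3 or 4 or GF replicate 1 or 3), neither of them called. Ninj2 had 14 to 37 counts per CON library and an SE of 0.39.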
